A study of Homo sapiens with 6 samples.

Results

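Chromosome 22 held 3581 of the 175206 regions bound by estrogen receptor α (ERα) that came from merging the peaks of 6 lists wherever they overlapped by 1 bp or more. Every merged region on chromosome 22 was taken as a member, which left 171625 regions on chromosomes 1 to 21 and X. The regions were selected on their presence in a peak list, and the chromosome was chosen by summit fragments that were higher with estradiol (E2) or with the Y537S receptor at several of its loci, so those differences are given as descriptions and not as tests. The median region was 487 bp wide and the median gap to the next region was 5015 bp. At the edge of the overlap rule, 52 pairs of neighbouring regions lay less than 100 bp apart and stayed separate, and a 100 bp overlap would have split off 48 more regions, giving 3629.

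The regions come from chromatin immunoprecipitation and sequencing (ChIP-seq) with an anti-ERα antibody in MDA-MB-453, a human breast cancer cell line that makes androgen receptor and is ERα negative. The 6 libraries are Y537S with E2, Y537S without E2, K303R with E2, K303R without E2, wild type (WT) with E2 and WT without E2, with 1 library per group and no replicates. All 6 cultures carried an inducible ERα, were kept in 10% serum for 2 days and then received doxycycline at 2 µg/mL for 2 more days, together with 1 nM E2 in the groups named for it. Hormone stripping of the serum is not stated, nor whether a line is 1 clone, and libraries without doxycycline were not analysed here. The names of the peaks in the WT and K303R lists share a date-like tag that differs from that of the Y537S lists, so a processing batch and the Y537S line cannot be told apart.

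ERα is a nuclear receptor that estradiol activates and that binds DNA as a dimer, best at estrogen response elements made of a pair of inverted hexamers, and mostly at enhancers rather than at promoters. Y537S lies in the ligand-binding domain and holds the receptor in its active shape without hormone, and it is known from endocrine-resistant metastatic breast cancer. K303R lies in the hinge region and has been linked to greater sensitivity to low estrogen. Chromosome 22 is a small acrocentric chromosome with a gene-dense long arm, on which XBP1 is found, a known estrogen-induced gene of luminal breast cancer whose protein acts in the response to misfolded proteins.

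Promoter sequence was available for 668 windows on chromosome 22 (RefSeq, GRCh38.p14), and a gene can have more than 1. Each window has 300 bases, from 250 before to 50 after an annotated start. Of these promoters 175 held a peak summit in 1 or more lists. A summit lay in the promoter in all 6 lists for 33 of them. The core hexamer AGGTCA, searched on both strands, was found in 14 of these 33 promoters (42.4%), in 21.7% of the 175, in 14.2% of the 493 promoters with no summit and in 13.8% of all promoters in the table. A near element was searched for as GGTCANNNTGACC with up to 2 of its 10 fixed bases changed, which reads the same on both strands and may overlap a core hexamer. It was found in 10 of the 33 promoters (30.3%), in 16% of the 175, in 9.53% of those with no summit and in 10.2% of all promoters. The full element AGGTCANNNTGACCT was in none of the 668. Printed here are 5 of these promoters, which have their summit inside the window in all 6 libraries and show the range from near elements to no match, with core hexamers and near elements in capitals. They were chosen after their values were seen. The windows are chr22:43391358-43391657 (minus strand), chr22:36925894-36926193 (minus), chr22:35623305-35623604 (minus), chr22:17638334-17638633 (plus) and chr22:44443077-44443376 (plus).
LOC105373053: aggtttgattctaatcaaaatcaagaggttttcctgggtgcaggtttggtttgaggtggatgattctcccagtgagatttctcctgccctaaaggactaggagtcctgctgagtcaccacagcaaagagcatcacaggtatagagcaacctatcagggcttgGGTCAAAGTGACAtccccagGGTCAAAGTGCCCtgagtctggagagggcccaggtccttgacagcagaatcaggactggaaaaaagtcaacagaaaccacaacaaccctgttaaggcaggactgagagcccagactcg
LOC105373023: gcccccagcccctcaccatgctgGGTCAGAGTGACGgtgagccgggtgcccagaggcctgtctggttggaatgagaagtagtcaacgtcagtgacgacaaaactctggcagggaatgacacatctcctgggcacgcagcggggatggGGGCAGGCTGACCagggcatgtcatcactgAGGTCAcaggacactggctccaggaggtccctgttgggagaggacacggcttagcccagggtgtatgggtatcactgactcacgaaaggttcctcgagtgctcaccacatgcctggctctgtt
MB: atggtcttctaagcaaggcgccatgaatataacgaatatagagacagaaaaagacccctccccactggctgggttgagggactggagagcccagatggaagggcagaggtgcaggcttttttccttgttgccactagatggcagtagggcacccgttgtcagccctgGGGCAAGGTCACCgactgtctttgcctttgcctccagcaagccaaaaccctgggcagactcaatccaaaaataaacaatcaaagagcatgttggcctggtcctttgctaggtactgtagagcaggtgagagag
BCL2L13: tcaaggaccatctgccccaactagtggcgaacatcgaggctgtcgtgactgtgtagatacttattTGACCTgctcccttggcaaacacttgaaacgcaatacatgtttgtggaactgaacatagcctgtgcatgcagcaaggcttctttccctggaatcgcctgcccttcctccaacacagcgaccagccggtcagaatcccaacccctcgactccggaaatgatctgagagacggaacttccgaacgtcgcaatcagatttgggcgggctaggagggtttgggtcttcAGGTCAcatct
LINC01656: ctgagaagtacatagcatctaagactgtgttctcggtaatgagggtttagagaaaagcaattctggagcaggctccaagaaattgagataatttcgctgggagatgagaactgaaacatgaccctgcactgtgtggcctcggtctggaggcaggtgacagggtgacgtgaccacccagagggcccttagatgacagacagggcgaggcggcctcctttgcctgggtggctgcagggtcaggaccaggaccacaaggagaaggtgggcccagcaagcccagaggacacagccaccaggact

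LOC105373053, an uncharacterized RNA gene, has near elements 88 and 68 bases before the start and was among the strongest promoters. Its region had 238 fragments at the summit in Y537S with E2, 243 in Y537S without E2, 322 in K303R with E2, 312 in K303R without E2, 344 in WT with E2 and 353 in WT without E2, and the summits lay 18 to 41 bases before the start. MB, which encodes the oxygen-binding protein myoglobin, had 234, 244, 283, 260, 228 and 253 fragments in the same order of libraries, with summits 25 to 54 bases before the start. LOC105373023 had 206, 212, 215, 122, 241 and 206 fragments. BCL2L13, a mitochondrial outer membrane protein of the BCL2 family, was weaker, with 86, 76, 71, 63, 61 and 52 fragments and a core hexamer toward each end of its window. No E2 ratio of these 4 promoters was called in any line, and LOC105373053 was called lower in Y537S than in WT with E2, at 0.63. LINC01656, a non-coding RNA gene whose window holds neither motif, had 200 fragments in Y537S with E2, 183 in Y537S without E2, 189 in K303R with E2, 124 in K303R without E2, 244 in WT with E2 and 159 in WT without E2. Its WT ratio with E2 over without E2 was 1.5 (95% counting interval 1.23 to 1.85), which was called higher. A motif match describes the letters of the window and does not show where the receptor sat.

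The number of fragments at a summit was recovered from the authors' fold enrichment and −log10 p of each peak, which both depend on it, and it is the measure used throughout. It matched the deposited p to within 0.01% for 100% of chromosome 22 peaks. Values are as recovered, and ratios between libraries were divided by the ratio of the libraries' medians over regions in all 6 lists with a mean of at least 50 fragments, called well covered here. There were 33626 well-covered regions in all and 1076 on chromosome 22, so 2505 chromosome 22 regions entered no ratio. Calls needed a ratio beyond 1.5-fold in either direction and an exact counting interval, wider than the printed ones, that left out 1. A call compares 2 libraries, has no replicate check, and its interval covers counting error only. Intervals printed below are 95% counting intervals.

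Each library listed a similar number of peaks on chromosome 22, and the share of its list was higher with E2 in all 3 lines. There were 2705 peaks in Y537S with E2 (2.41% of that list), against 2694 (2.3%) in Y537S without E2. K303R had 2642 peaks (2.47%) with E2, against 2464 (2.32%) without E2. WT had 2634 peaks (2.16%) with E2, against 2615 (2.08%) without E2. The whole list was shorter with E2 in Y537S (112464 peaks against 117193) and in WT (121718 against 125850), which by itself raises the share. In K303R it held 107137 peaks with E2 against 106186 without E2. The share was higher with E2 by 0.106 percentage points in Y537S, 0.146 in K303R and 0.0861 in WT. An exact 2-sided sign-flip test over the 3 lines gave p = 0.25, the smallest p it can give, so it cannot decide. The chromosome was also chosen with E2 differences in view, and each line has 1 library per treatment. Covered length was between 1.2 Mb in K303R without E2 and 1.3 Mb in Y537S with E2, and the median summit had 33 to 45 fragments on chromosome 22, against 23 to 30 over whole lists.

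More of the chromosome was shared by all 6 libraries than elsewhere. In all 6 lists there were 1762 of the 3581 regions (49.2%, 95% Wilson interval 47.6 to 50.8), against 38.4% of regions on the other chromosomes (38.2 to 38.7), the highest share among 23 chromosomes. In 1 list there were 574 regions (16%, 14.9 to 17.3), against 21.8% elsewhere (21.6 to 22), the lowest share among them. Regions in all 6 lists were strong, with a median highest summit of 94 fragments on chromosome 22 and 71 elsewhere, and regions in 1 list were weak in both places, with a median of 11. Chromosome 22 also had the highest share of well-covered regions, 30% of its members.

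Regions in both lists of a single receptor and in no other list were few. In both Y537S lists and no other there were 102 regions, 2.85% of the chromosome 22 regions, against 2.31% of all regions. For both K303R lists the count was 59 (1.65% against 1.51%), and for both WT lists it was 29 (0.81% against 2.23%). Strong examples for Y537S were in GNB1L, a WD-repeat protein gene (119 fragments with E2 and 106 without), and in CSNK1E, the casein kinase 1 epsilon gene of the circadian clock (135 with E2 and 84 without). Examples for K303R were in CACNA1I, a T-type calcium channel gene (121 with E2 and 78 without), and CELSR1 (92 with E2 and 90 without). Examples for WT had 39 to 54 fragments, at MED15, SYN3 and 8879 bp from A4GALT. Fragments in a library that does not list a region are not known. The 111 chromosome 22 regions in 1 to 5 lists with a mean of 50 or more fragments over the lists that hold them had a median local background 14.6 times the lowest of their library and a median authors' fold of 3.55, against 8.09 times and 11.9 for well-covered regions.

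Along the chromosome the listed regions began 15.9 Mb from the start of the sequence, at the first summit, and ended at 50.7 Mb. The windows with most regions were the 1 Mb windows starting at 46 Mb, with 151 regions, 20 Mb, with 146, 37 Mb, with 142, and 38 and 39 Mb, with 135 each. The fewest were at 15 Mb, with 1 region, 16 Mb, with 10, and 18 Mb, with 34. The 46 Mb window lists 123 regions in Y537S with E2, 125 in Y537S without E2, 117 in K303R with E2, 111 in K303R without E2, 113 in WT with E2 and 112 in WT without E2. It covers CELSR1, a planar cell polarity cadherin, and PPARA, the fatty acid receptor of the nuclear receptor family. At 44 Mb there were 95 regions in Y537S with E2, 97 in Y537S without E2, 96 in K303R with E2, 69 in K303R without E2, 92 in WT with E2 and 76 in WT without E2. At 48 Mb there were 59 regions in Y537S with E2, 51 in Y537S without E2, 58 in K303R with E2, 38 in K303R without E2, 50 in WT with E2 and 43 in WT without E2. In both windows K303R and WT listed more regions with E2 than without it, and Y537S did so at 48 Mb but not at 44 Mb. The local background over the lowest of its library also varied along the chromosome. In Y537S with E2 its median was 7.59 at 20 Mb, against 1.46 at 47 Mb, and in WT without E2 it was 4.32 at 20 Mb and 2.22 at 47 Mb.

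**Figure D1:**
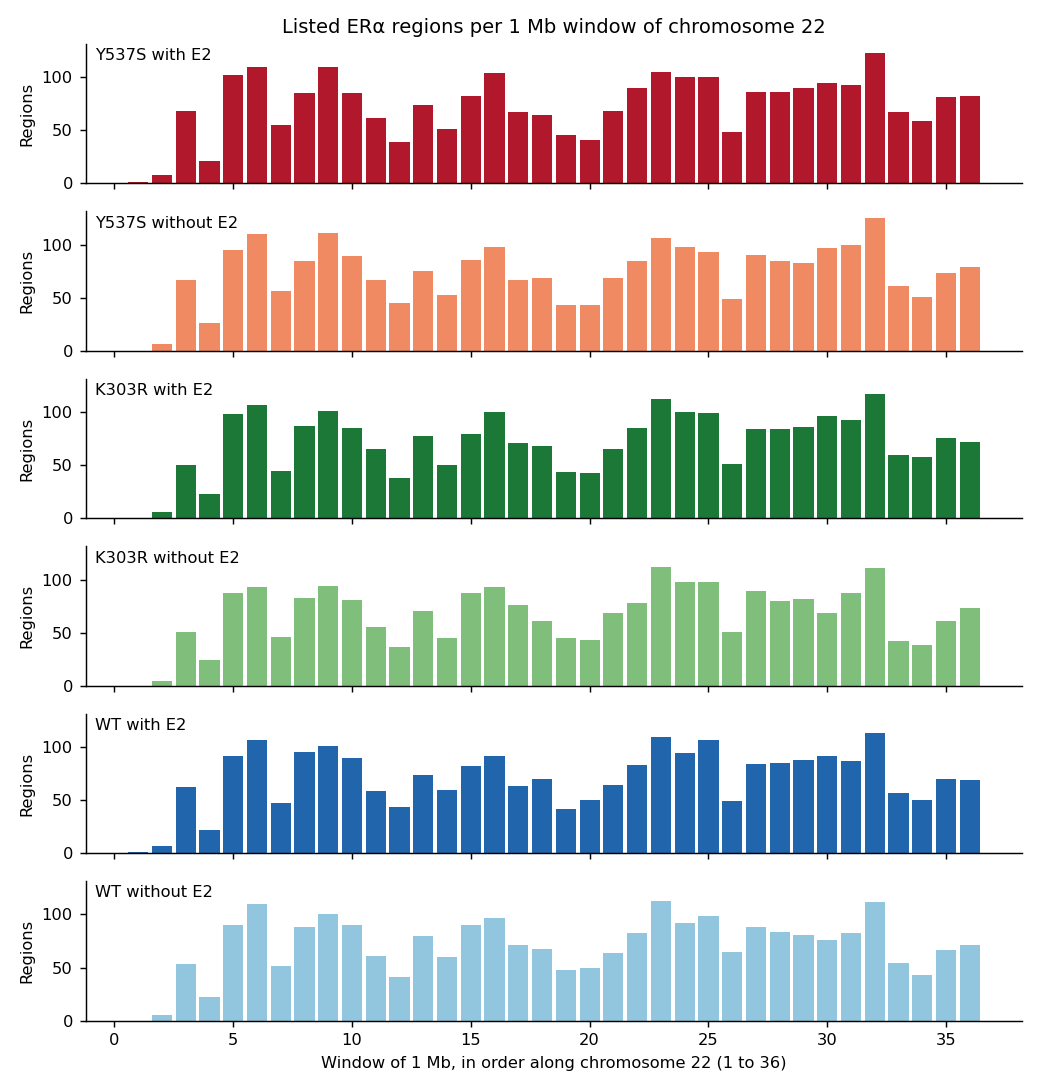
The number of regions that each library listed (y axis) in each 1 Mb window of chromosome 22 (x axis, windows in order), with a panel for each of the 6 libraries and 1 library per group. The window with most regions is the 32nd, which holds 111 to 125 regions in every library, and the first 2 windows hold at most 8.

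Chromosome 22 regions lay in genes more often than regions elsewhere. The summit was in the span of a protein-coding gene in 60.4% of members (58.8 to 62), against 49.4% of the other regions (49.2 to 49.7). It was within 1 kb of either end of a gene in 10.7% (9.7 to 11.7), against 7.94% (7.81 to 8.07). Chromosome 19, which is denser in genes, had 64.1% and 22.7%. The gene table used here gives spans without exons, so exonic and intronic positions are not given.

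The strongest 10 regions stayed strong in all 6 libraries and were not called different with E2 in any line. The strongest was in LGALS2, a galectin gene (chr22:37569938-37570808), with 337 fragments in Y537S with E2, 298 in Y537S without E2, 390 in K303R with E2, 372 in K303R without E2, 371 in WT with E2 and 385 in WT without E2. Next were a pair of regions in CELSR1 (chr22:46491866-46492452, 299 to 388 fragments, and chr22:46422795-46423388, 300 to 361) and a region 13341 bp from XBP1 (chr22:28813569-28814418, 264 to 370). Others of the 10 were 427 bp from the adaptor gene CRKL, in PLA2G6, a phospholipase, 5115 bp from TRIOBP, an actin-binding protein, in MMP11, a matrix metalloproteinase, and 3625 bp from the translation initiation factor gene EIF3L. Over these 10 regions the ratio of K303R to WT was above 1 in all 10, at 1.06 to 1.32 with E2 and 1.14 to 1.55 without E2, and the ratio of Y537S to WT was below 1 in all 10, at 0.715 to 0.964 with E2 and 0.766 to 0.976 without E2. The ratio with E2 over without E2 was 0.82 to 0.926 in K303R. These directions depended on the scaling. Under background scaling, which uses the lowest local background of each library, the ratio of K303R to WT was above 1 in 8 of the 10 with E2 and 3 of the 10 without E2, that of Y537S to WT in 3 with E2 and 6 without E2, and that of E2 in K303R in all 10, with log2 ratios of 0.11 to 0.28. The region near TRIOBP was called higher in K303R than in WT without E2 (log2 ratio 0.63), and lost that call under background scaling (0.19) and under centring on windows (0.41). No other ratio in this set was called.

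More regions were called higher with E2 than lower in K303R and in WT, and the share was above that of all regions. In K303R 56 regions were called higher with E2 (5.2%) and 6 lower (0.558%), against 2.05% higher and 1.05% lower over all well-covered regions. In WT 47 were called higher (4.37%) and 9 lower (0.836%), against 1.55% and 0.684%. In Y537S none was called higher and 3 were called lower (0.279%), against 0.0862% and 0.0833%. The median log2 ratio with E2 over without E2 was 0.05 in K303R (0.02 to 0.09), 0.00 in Y537S (−0.02 to 0.01) and 0.04 in WT (0.01 to 0.06), against −0.03, −0.01 and −0.01 over all regions. Chromosome 22 had the highest share of regions called higher with E2 among 23 chromosomes in both K303R and WT, ahead of chromosome 21 with 3.85% and 2.94%. These shares were in view when the chromosome was picked. Scaling by the lowest local background moved the median log2 ratio of all regions to 0.36 for E2 in K303R and 0.09 for E2 in WT. Under it 290 chromosome 22 regions were called higher and 0 lower in K303R, where 14% of all regions were called higher and 0.0387% lower. In WT 68 were called higher and 3 lower, where 2.69% of all regions were called higher and 0.235% lower.

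**Figure D2:**
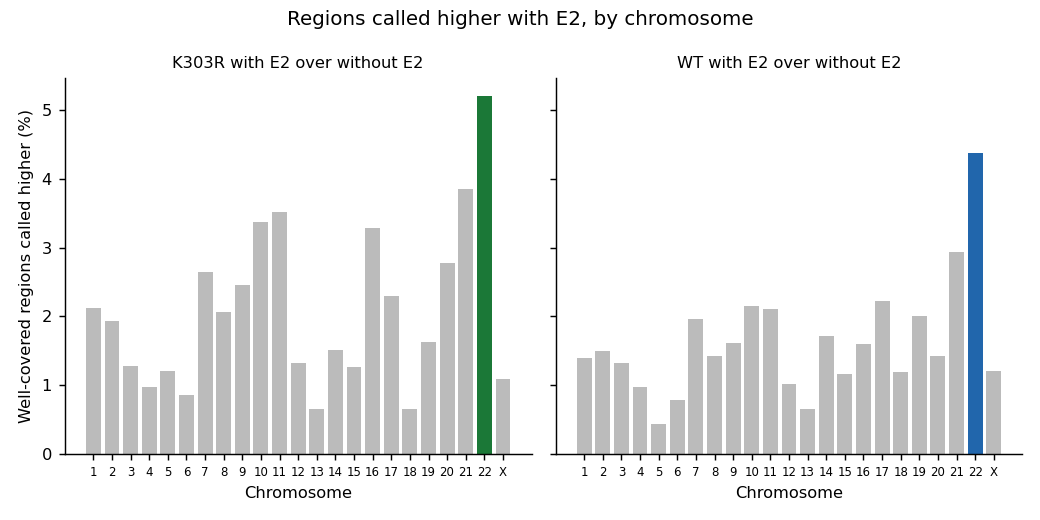
The percent of well-covered regions called higher with E2 than without E2 (y axis) on each chromosome (x axis), for K303R at the left and WT at the right, with 1 library per group. Chromosome 22, in colour, has 5.2% in K303R and 4.37% in WT, and chromosome 21 is next with 3.85% and 2.94%.

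The share was above that of the other chromosomes in each of 4 classes of strength. Chromosome 22 had relatively more strong regions, with 31.1% of its well-covered regions at a mean of 150 or more fragments, against 21.2% elsewhere. In K303R the share called higher with E2 was 4.27% on chromosome 22, against 2.18% elsewhere, at means of 50 to 75 fragments, 9.63% against 2.75% at 75 to 100, 8.06% against 2.08% at 100 to 150 and 1.19% against 0.665% at 150 or more. In WT it was 4.27% against 1.73%, 7.49% against 1.93%, 6.59% against 1.62% and 0.896% against 0.347% in the same classes. The chromosome was picked with E2 differences in view and the classes were chosen after the values were seen, so these shares are a description. The strongest class holds 4 and 3 such chromosome 22 regions in K303R and WT.

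The regions called higher with E2 were more frequent toward the end of the long arm. From 43 Mb to the end there were 280 of the 1076 well-covered regions (26%), but 27 of the 56 regions called higher with E2 in K303R (48.2%) and 30 of the 47 in WT (63.8%). In the window at 44 Mb, with 37 well-covered regions, the median log2 ratio with E2 over without E2 was 0.48 in K303R, −0.01 in Y537S and 0.38 in WT, and 8 regions were called higher in K303R and 6 in WT. Between 47 and 49 Mb, with 36 regions, it was 0.39 in K303R, 0.04 in Y537S and 0.31 in WT. The window at 48 Mb had the highest medians, 0.49 in K303R (0.13 to 0.79) and 0.41 in WT (−0.01 to 0.67), over 13 regions, and the WT interval includes 0. In windows of 2 Mb the highest medians were 0.26 in K303R and 0.25 in WT, at 44 to 46 Mb. Below 43 Mb the medians were 0.02 in K303R, 0.00 in Y537S and 0.01 in WT, and 3.64% of regions in K303R and 2.14% in WT were called higher. Without the 44 Mb window 48 regions in K303R and 41 in WT were called higher with E2.

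**Figure D3:**
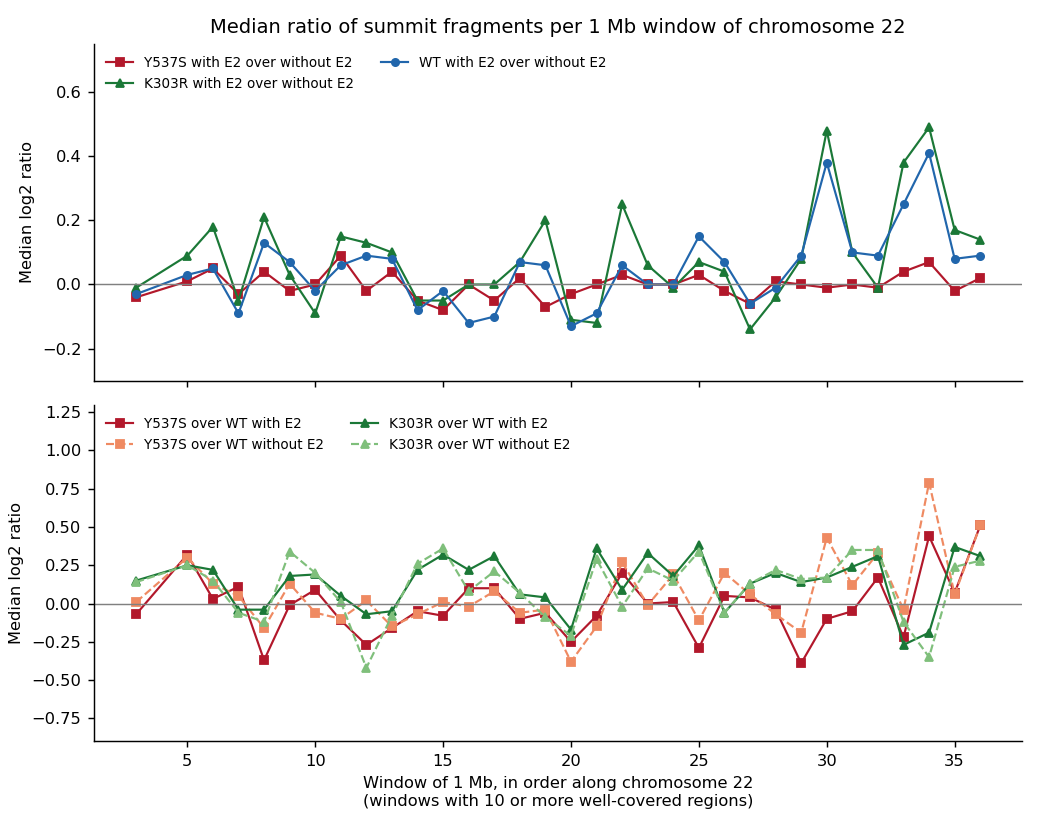
The median log2 ratio of summit fragments (y axis) in each 1 Mb window of chromosome 22 with 10 or more well-covered regions (x axis, windows in order), with E2 over without E2 in each line (top) and each mutant over WT (bottom), from 1 library per group. In the 30th window the K303R and WT medians with E2 are 0.48 and 0.38 and the Y537S median is −0.01. In the last window the Y537S medians over WT are 0.51 in both treatments.

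Called higher with E2 in both K303R and WT were 16 regions (1.49%, against 0.372% of all well-covered regions), 1 region was called lower in both (0.0929%, against 0.0416%), and at 0 regions the calls were opposite. Over the 1076 regions the log2 ratios with E2 in WT and in K303R had Pearson's r = 0.62 (Spearman's rho = 0.59), against 0.44 over 32550 regions elsewhere. The points are regions of the same 4 libraries and are not independent. Between Y537S and WT r was 0.07, and between Y537S and K303R it was 0.10. At the 16 regions, which these ratios chose, the lowest, median and highest values were 109, 157 and 196 fragments in Y537S with E2 and 73, 134 and 178 in Y537S without E2. They were 81, 130 and 158 in K303R with E2 and 21, 45.5 and 74 in K303R without E2, and 60, 106 and 162 in WT with E2 and 10, 47.5 and 90 in WT without E2. The K303R and WT libraries were lower without E2 than with E2 by the choice of these regions. Being well covered rests on the mean of all libraries, so regions low in K303R and WT without E2 could pass through Y537S. Over all 1076 regions the median was 135 in Y537S with E2, 117 in Y537S without E2, 81.5 in K303R without E2 and 106 in WT without E2. The median local background at the 16 regions was 10.2 in Y537S with E2, 9.35 in Y537S without E2, 9.76 in K303R with E2, 4.56 in K303R without E2, 7.35 in WT with E2 and 3.74 in WT without E2. It was higher with E2 together with the summit, and its part in the result was not tested. The authors' own fold enters the recovery of the fragments that chose the 16 regions, so it is not separate evidence. Its medians there were 13.9 with E2 against 9.04 without E2 in K303R, and 14.4 against 10.6 in WT. Over all 1076 regions they were 12.2 against 10.9 in K303R and 12.7 against 12.2 in WT. Of the 16, 13 lay from 43 Mb to the end and 13 had their summit in a protein-coding gene.

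The region in NOL12, a nucleolar RNA-binding protein, had the highest WT and K303R ratios of the 16 (chr22:37688513-37689311). It had 176 fragments in Y537S with E2, 178 in Y537S without E2, 91 in K303R with E2, 21 in K303R without E2, 60 in WT with E2 and 10 in WT without E2. Its ratio with E2 over without E2 was 3.51 in K303R (2.17 to 5.95), 0.874 in Y537S (0.706 to 1.08) and 5.88 in WT (2.99 to 12.9). The region in RIBC2, a protein of the cilium axoneme (chr22:45429835-45430674), had 175, 133, 125, 33, 99 and 32 fragments in the same order of libraries. Its ratios were 3.07 in K303R (2.08 to 4.66), 1.16 in Y537S (0.923 to 1.47) and 3.03 in WT (2.02 to 4.67). A neighbouring region in RIBC2 (chr22:45428573-45429104), with 159, 141, 149, 88, 165 and 80 fragments, was called in WT, at 2.02, and not in K303R, at 1.37. In PLXNB2, a receptor for semaphorins (chr22:50290618-50291195), the values were 121, 95, 140, 36, 100 and 48, with ratios of 3.15 in K303R (2.17 to 4.69), 1.13 in Y537S (0.853 to 1.49) and 2.04 in WT (1.43 to 2.94). A region 84818 bp from TAFA5, a secreted chemokine-like protein (chr22:48404367-48405060), had 191, 175, 81, 21, 108 and 55 fragments and ratios of 3.13 in K303R (1.92 to 5.32), 0.965 in Y537S (0.782 to 1.19) and 1.93 in WT (1.38 to 2.71).

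Several of the 16 lay close together in or near the same gene. There were 3 in PHF21B, a PHD finger protein, with 96, 158 and 120 fragments in K303R with E2 against 26, 74 and 45 in K303R without E2, and 80, 147 and 84 in WT with E2 against 33, 90 and 35 in WT without E2. A pair lay 32362 and 51292 bp from SHISAL1, with 152 and 147 fragments in K303R with E2 against 72 and 60 in K303R without E2, and 98 and 156 in WT with E2 against 39 and 76 in WT without E2. Another pair lay in TXNRD2, the mitochondrial thioredoxin reductase, with 134 and 95 fragments in K303R with E2 against 58 and 34 in K303R without E2, and 107 and 65 in WT with E2 against 47 and 31 in WT without E2. The others were in GRAMD4, in TBC1D22A, in BRD1, a scaffold of a histone acetyltransferase complex, in MOV10L1, a germ line RNA helicase of the piRNA pathway, and in DENND6B. Their ratios with E2 over without E2 were 1.76 to 2.98 in K303R and 1.63 to 2.22 in WT. None of the 16 was called with E2 in Y537S.

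**Figure D4:**
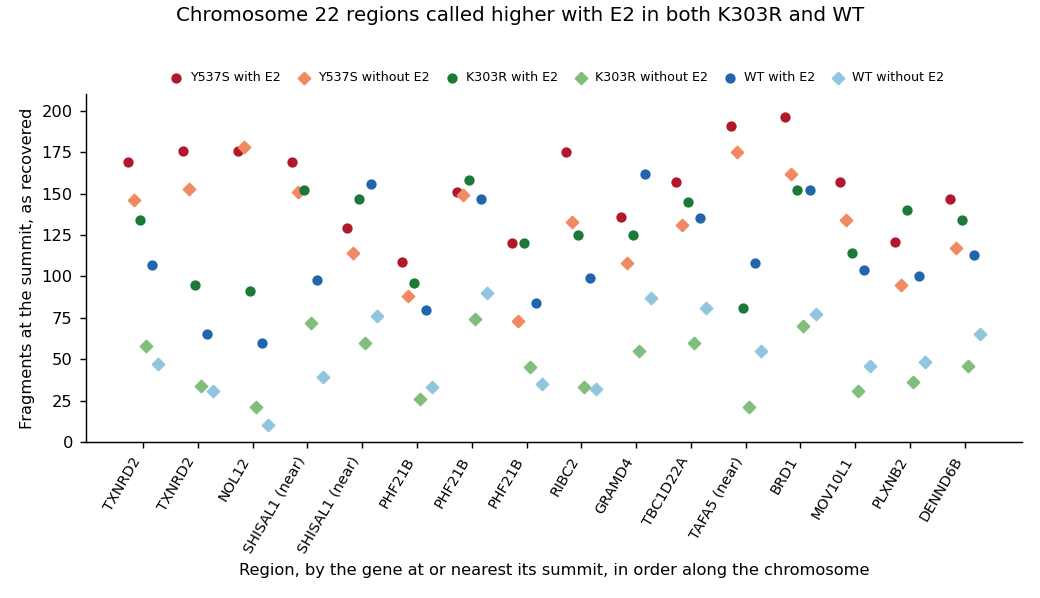
Summit fragments as recovered, before scaling (y axis), in each of the 6 libraries at the 16 chromosome 22 regions called higher with E2 in both K303R and WT (x axis, in order along the chromosome and named by the gene at or nearest the summit). Circles are libraries with E2 and diamonds are libraries without E2, and the ratios in the text are the quotient of these values, with E2 over without E2, divided by a scale of 1.23 in K303R, 1.13 in Y537S and 1.02 in WT. At each region the K303R and WT libraries with E2 lie above their libraries without E2, and in NOL12 the K303R values are 91 and 21 and the WT values 60 and 10.

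The region called lower with E2 in both lines was in ARFGAP3, a regulator of Golgi transport (chr22:42844712-42845202). It had 116 fragments in Y537S with E2, 111 in Y537S without E2, 55 in K303R with E2, 83 in K303R without E2, 111 in WT with E2 and 168 in WT without E2. The ratio was 0.537 in K303R (0.375 to 0.765), 0.924 in Y537S (0.706 to 1.21) and 0.648 in WT (0.505 to 0.828). Of regions called lower in 1 line, the lowest ratios in WT were in PACSIN2 (0.442), KIAA1671 (0.477) and DGCR2 (0.482). In K303R the lowest ratios beside ARFGAP3 were in TMPRSS6 (0.459), GNB1L (0.506) and DGCR2 (0.527). This DGCR2 region (chr22:19109024-19109813) is not the one called in WT. The 3 regions called lower with E2 in Y537S were in LIMK2 (0.518), in TRMU (0.57) and 146962 bp from CRYBA4 (0.589).

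Regions called higher with E2 in K303R tended to have more fragments in Y537S than in WT. No library of K303R enters that ratio, but the choice of regions was not independent of it. Being well covered rests on the mean of all libraries, so regions low in K303R and WT without E2 could pass through Y537S. At the 56 regions the median was 44 fragments in K303R without E2, 60 in WT without E2, 137 in Y537S with E2 and 118 in Y537S without E2. The chromosome was chosen with Y537S and E2 differences in view, so the counts below are a description. With E2 43 of the 56 had a ratio of Y537S to WT above 1, the median log2 ratio was 0.29, and 15 were called higher and 1 lower, where 10.3% of chromosome 22 regions and 6.06% of all regions were called higher. Over all 1076 regions with E2 542 were above 1 and the median was 0.00. Without E2 51 of the 56 were above 1, the median was 0.78, and 34 were called higher and 1 lower, where 14.4% of chromosome 22 regions and 8.05% of all regions were called higher. Over all 1076 regions without E2 588 were above 1 and the median was 0.06. The 6 regions called lower with E2 in K303R had medians of 0.17 with E2 and −0.28 without E2.

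Under the median scaling, Y537S was called higher than WT at more chromosome 22 regions than it was called lower, and this split depended on the scaling. With E2 111 regions were called higher (10.3%) and 66 lower (6.13%), against 6.06% and 8.59% of all well-covered regions. Without E2 155 were called higher (14.4%) and 60 lower (5.58%), against 8.05% and 9.15%. The median log2 ratio was 0.00 with E2 (−0.04 to 0.05) and 0.06 without E2 (0.02 to 0.10), against −0.06 over all regions in both treatments. The same direction was called in both treatments at 61 higher regions (5.67%, against 3.34%) and 34 lower regions (3.16%, against 4.79%), and at 0 regions the 2 treatments gave opposite calls. The log2 ratios in the 2 treatments, which come from 4 different libraries, had r = 0.74 over chromosome 22 and 0.75 elsewhere. Scaling by the lowest local background moved the median log2 ratio of all regions to 0.12 with E2 and 0.22 without E2, and called 190 chromosome 22 regions higher and 39 lower with E2, and 295 higher and 23 lower without E2. Over all regions it called 11.8% higher and 4.55% lower with E2, and 17.3% higher and 3.44% lower without E2. With the ratios centred on chromosome 22 itself, 68 were called higher and 96 lower with E2, and 99 higher and 98 lower without E2. The processing tag differs between these lines, so its part cannot be told apart from that of the receptor.

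At the 61 regions higher in both treatments the lowest, median and highest values were 86, 149 and 247 fragments in Y537S with E2 and 68, 126 and 219 in Y537S without E2. They were 23, 65 and 149 in WT with E2 and 10, 57 and 122 in WT without E2. The summit was in the span of a protein-coding gene at 49 of the 61 (80.3%, 68.7 to 88.4), against 8 of the 34 lower regions (23.5%, 12.4 to 40). All well-covered chromosome 22 regions had 64.8%. The median local background at the 61 regions was 9.37 in Y537S with E2 and 8.2 in Y537S without E2, against 4.24 in WT with E2 and 3.85 in WT without E2, and its part in the result was not tested.

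PLXNB2 held a region called higher in Y537S in both treatments (chr22:50281604-50282328). It had 173 fragments in Y537S with E2, 146 in Y537S without E2, 57 in K303R with E2, 29 in K303R without E2, 26 in WT with E2 and 24 in WT without E2. The ratio of Y537S to WT was 6.06 with E2 (4.0 to 9.54) and 6.14 without E2 (3.97 to 9.9). The NOL12 region described above had a ratio of 2.67 with E2 (1.98 to 3.64) and 18.0 without E2 (9.55 to 38.1), the second resting on 10 fragments in WT. The other named regions were in TXNRD2 (2.47 with E2 and 4.99 without), in BCR, a kinase and GTPase regulator known from the Philadelphia chromosome (2.86 and 3.9), in FAM83F (2.44 and 4.16) and in ARSA, a lysosomal sulfatase (2.43 and 3.8). The last 1 Mb of the sequence, which holds PLXNB2 and ARSA, had 40 well-covered regions with a median log2 ratio of 0.51 in both treatments. There 15 were called higher with E2 (37.5%) and 17 without E2 (42.5%), with 0 lower in either. Over all well-covered regions 6.06% were called higher with E2 and 8.05% without E2. The median local background over the lowest of its library in this window was 6.16 in Y537S with E2 and 6.45 in Y537S without E2. In WT it was 3.55 with E2 and 3.35 without E2, and its part in the result was not tested.

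The regions lower in Y537S in both treatments were fewer and mostly outside genes. The region 22510 bp from XBP1 (chr22:28822857-28823430) had 29 fragments in Y537S with E2, 36 in Y537S without E2, 162 in K303R with E2, 153 in K303R without E2, 100 in WT with E2 and 115 in WT without E2. The ratio of Y537S to WT was 0.264 with E2 (0.168 to 0.403) and 0.316 without E2 (0.211 to 0.463), and K303R was called higher than WT there in both treatments, at 1.84 and 1.82. The stronger region nearer to XBP1, among the strongest 10, had Y537S ratios of 0.715 and 0.766, which were not called. The other named regions lower in Y537S were 12579 bp from CRKL (0.367 with E2 and 0.238 without), 11979 bp from IGLL5 (0.276 and 0.32), 7520 bp from GRK3 (0.339 and 0.275), in TTC28 (0.256 and 0.375) and 37033 bp from RTL6 (0.358 and 0.328). The windows at 22 and 43 Mb had the lowest Y537S medians with E2 among windows with 10 or more well-covered regions, −0.37 and −0.39.

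**Figure D5:**
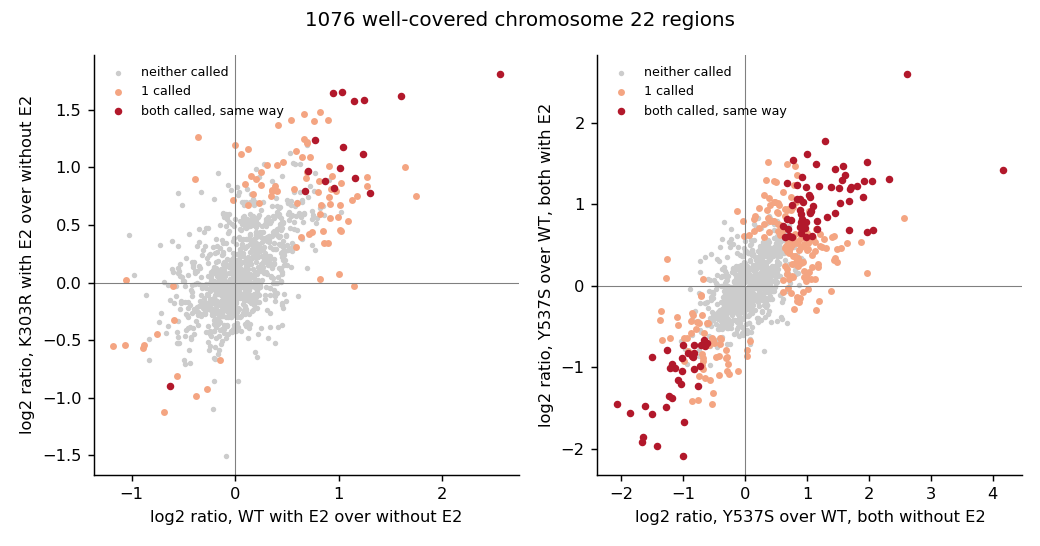
Log2 ratios of summit fragments at the 1076 well-covered chromosome 22 regions, each point 1 region, with K303R with E2 over without E2 against the same ratio in WT (left) and Y537S over WT with E2 against the same ratio without E2 (right). Red points were called the same way in both ratios, orange points in 1. At the left 16 red points are high and 1 is low, and at the right 61 are high and 34 are low.

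K303R had more fragments than WT at more chromosome 22 regions than it had fewer under the median scaling, and this split depended on the scaling. With E2 98 regions were called higher (9.11%) and 27 lower (2.51%), against 6.33% and 7.89% of all well-covered regions. Without E2 67 were called higher (6.23%) and 30 lower (2.79%), against 5.49% and 5.86%. The median log2 ratio was 0.20 with E2 (0.16 to 0.21) and 0.17 without E2 (0.14 to 0.20), against 0.05 and 0.04 over all regions. Scaling by the lowest local background moved the median of all regions to −0.09 with E2 and −0.39 without E2 and that of chromosome 22 to 0.06 and −0.27, and called 57 higher and 45 lower with E2 and 8 higher and 142 lower without E2. Over all regions it called 3.53% higher and 11.5% lower with E2, and 0.642% higher and 22.7% lower without E2. Centred on chromosome 22 itself, 50 were called higher and 55 lower with E2. A scaling shifts every region of a comparison by the same amount, so the gap between the chromosome 22 median and that of all regions could not change. In both treatments 34 regions were called higher (3.16%, against 2.58%) and 12 lower (1.12%, against 3.54%), and 0 were opposite. The log2 ratios of the 2 treatments had r = 0.71 on chromosome 22 and 0.75 elsewhere.

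GUCD1 held the first region of the K303R ranking (chr22:24542716-24543636). It had 161 fragments in Y537S with E2, 142 in Y537S without E2, 210 in K303R with E2, 174 in K303R without E2, 90 in WT with E2 and 93 in WT without E2. The ratio of K303R to WT was 2.64 with E2 (2.06 to 3.42) and 2.56 without E2 (1.98 to 3.33), and Y537S was also called higher than WT there with E2, at 1.63. SUN2, which anchors the nucleus to the cytoskeleton, had a region with 93 fragments in K303R with E2 and 89 in K303R without E2, against 42 in WT with E2 and 47 in WT without E2 (ratios of 2.51 and 2.59). Both Y537S libraries were also high there, with 127 and 140 fragments. The other named regions higher in K303R were 71138 bp from GRK3 (2.5 with E2 and 2.55 without), in RSPH14 and RAB36 (2.33 and 2.26), in TCF20 (2.09 and 2.38) and in AP1B1, a clathrin adaptor (1.74 and 2.86). HORMAD2, a meiotic chromosome protein, held a region called lower in K303R (chr22:30120924-30121645), with 178 fragments in Y537S with E2, 160 in Y537S without E2, 43 in K303R with E2, 35 in K303R without E2, 196 in WT with E2 and 175 in WT without E2. Its ratio of K303R to WT was 0.249 with E2 (0.174 to 0.347) and 0.274 without E2 (0.185 to 0.396), and Y537S was not called different from WT. Other lower regions were in another part of TCF20 (0.42 and 0.287), 33948 bp from GGTLC2 (0.505 and 0.28) and 201750 bp from CRYBA4 (0.357 and 0.402). The calls of Y537S and K303R against WT share the WT libraries.

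Genes of 8 lists with known roles were set beside the regions, 102 genes in all. A gene counted as near a strong region when any of the 10000 regions of a library with the top −log10 p values had its summit in the gene span or within 25 kb. That held in 1 or more libraries for 78 of the 102 (76.5%), against 312 of the 451 protein-coding genes of the chromosome (69.2%), and in all 6 libraries for 48 (47.1%), against 221 (49%). By library the counts were 67 in Y537S with E2, 66 in Y537S without E2, 65 in K303R with E2, 63 in K303R without E2, 57 in WT with E2 and 55 in WT without E2. Of the list genes, 88 had a well-covered region within that distance, and 18 of them had 1 called higher with E2 in K303R and 13 in WT, against 67 and 40 of the 365 protein-coding genes with such a region.

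Of 9 genes linked to estrogen and other steroids, 8 were near a strong region in 1 or more libraries and 4 in all 6, among them XBP1, the sterol regulator SREBF2 and the cytokine gene LIF. The strongest region near PPARA (chr22:46151425-46152103) had 191 fragments in Y537S with E2, 170 in Y537S without E2, 205 in K303R with E2, 131 in K303R without E2, 155 in WT with E2 and 84 in WT without E2. Its ratio with E2 over without E2 was 1.81 in WT (1.38 to 2.39), which was called higher, 1.27 in K303R (1.01 to 1.59) and 0.993 in Y537S (0.803 to 1.23). CYP2D6, a drug-metabolizing cytochrome, was near no strong region and no well-covered one. Of 16 coregulator and chromatin genes 11 were near a strong region and 8 in all 6 libraries, including the mediator subunit MED15 (170 to 252 fragments at its strongest region) and BRD1 (96 to 235). EP300, the acetyltransferase p300, was near none.

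Adhesion, cytoskeleton and guidance genes were near strong regions for 12 of 14 and in all 6 libraries for 8. PLXNB2 had its strongest region at chr22:50288419-50289130, with 327 fragments in Y537S with E2, 293 in Y537S without E2, 291 in K303R with E2, 232 in K303R without E2, 297 in WT with E2 and 272 in WT without E2, none of them called different. That region and the regions of PLXNB2 that were called lie within 1 gene. MYH9, non-muscle myosin, had 186, 162, 113, 91, 102 and 107 fragments at a region 3324 bp away, and Y537S was called higher than WT in both treatments, at 1.66 with E2 and 1.53 without E2. Growth factor, cytokine receptor and kinase genes were near a strong region in 1 or more libraries for 14 of 15 (93.3%) and in all 6 for 11 (73.3%). Of all protein-coding genes of the chromosome 69.2% and 49% were. The region in OSM, the oncostatin M gene next to LIF, had 250 and 220 fragments in Y537S with and without E2, against 155 and 137 in WT, and was called higher without E2, at 1.62.

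Tumour suppressor and replication genes were near strong regions for 7 of 10, and 4 of them in all 6 libraries, which were NF2, EWSR1, MCM5 and XRCC6. The region in MCM5, a subunit of the replicative helicase, had 251 to 320 fragments and was called in no comparison. CHEK2, RBX1 and ST13 were near none. Nucleolus, cilia and mitochondria genes were near strong regions for 9 of 9 and in all 6 libraries for 4. All 9 had a well-covered region nearby, and 8 of the 9 had 1 called higher in Y537S than in WT in each treatment, against 38.9% of the 365 protein-coding genes with E2 and 44.4% without E2. The 9 genes of this list were chosen near regions seen before in these data, so these counts are a description. RIBC2 and SMC1B share a region, as do TYMP and SCO2. The APOBEC3 cytidine deaminases and the apolipoprotein L genes lie in 2 tight clusters. Of these 13 genes 4 were near a strong region and 3 in all 6 libraries, and the region 4846 bp from APOBEC3A had 185 to 264 fragments and was called in no comparison. The region in APOL4 was called higher in Y537S than in WT with E2, at 2.29, and without E2, at 2.86.

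MicroRNA hairpins were overlapped by a region at 6 of 40 on chromosome 22. The 2 mature sequences with the most fragments at their hairpins are printed from RefSeq with the seed, bases 2 to 8, in capitals.
hsa-miR-378i: aCUGGACUaggagucagaagg
hsa-let-7b-5p: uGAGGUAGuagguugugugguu

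The hairpin MIR378I was the one overlapped by a well-covered region (chr22:41922855-41924006), with 154 fragments in Y537S with E2, 128 in Y537S without E2, 110 in K303R with E2, 62 in K303R without E2, 114 in WT with E2 and 71 in WT without E2. Y537S was called higher than WT there without E2, at 1.82 (1.35 to 2.47), and not with E2, at 1.23 (0.959 to 1.58). The difference between these ratios was not tested. No summit lay in that hairpin. MIRLET7B, the hairpin of a tumour suppressor microRNA, was overlapped by a region in the lists of Y537S with E2 and K303R with E2 (chr22:46113697-46114263). It had 63 fragments in Y537S with E2, where the summit lay in the hairpin, and 72 in K303R with E2, over local backgrounds of 31.1 and 25.6, so the authors' fold was 2 and 2.75. The other 4 lists hold no region there, and their fragment counts are not known.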

How the data were processed

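ERα ChIP-seq peak lists of 6 libraries were analysed, 1 per group, so no comparison has replicates. Per the submitters' processing notes, Bowtie2, SAMtools, Picard, bedtools and MACS2 were used with build hg38; their versions and any control library are not stated there. The authors deposited for each peak a fold enrichment over local background, a −log10 p, a −log10 q and a score, the last of which was not used. Summit fragments were solved from the deposited fold, taken as fragments plus 1 over background plus 1, and the Poisson −log10 p. Total depth is unknown.

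Peaks overlapping by 1 bp or more were merged. Ratios, library medians for scaling, exact conditional binomial intervals and calls were computed over all 33626 well-covered regions in python 3.11.15 (numpy 2.4.6, pandas 2.3.3, scipy 1.17.1). Figures were made in matplotlib 3.10.9. The calling was tested on simulated data with counting error only, which cannot show how often it errs between real libraries. Gene spans, promoters and miRNAs are from RefSeq (GRCh38.p14). The members and lists were chosen with earlier results of these data known. Named regions are the 10 strongest, up to 6 per direction called in both treatments for each mutant, those called with E2 in both lines or up to 4 per direction in 1 line, the strongest near each list gene, and up to 3 found in the lists of 1 receptor. Some named regions are not reported here.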

Additional observations from a re-analysis of the deposited data

How the results depend on the processing

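No paired analysis was possible because each group has 1 library. Of 173 calls in named regions, 27 were lost under background scaling and 33 under window centring, and none changed direction while called. Calls were gained in 57 and 11 other comparisons of named regions. Directions of the strongest 10 regions that were not called turned under background scaling. Also the K303R median against WT without E2 turned negative there. Chromosome 22 ranked 1 of 23 for the share called higher with E2 in K303R and in WT under all 7 settings compared. These settings reuse the same libraries, and the centred settings were not ranked. The chromosome was picked with these shares in view, so its rank is a description. The cause of the changes listed here was not tested.

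Under background scaling, E2 in K303R gave 290 higher and 0 lower with a median log2 ratio of 0.45, E2 in WT gave 3 lower with a median of 0.13, Y537S against WT gave 190 higher and 39 lower with E2 (median 0.18) and 295 higher and 23 lower without E2 (0.34), and K303R against WT gave 57 higher and 45 lower with E2 (0.06) and 8 higher and 142 lower without E2 (−0.27). With each comparison centred on chromosome 22, E2 in K303R gave 28 higher and 16 lower, E2 in WT gave 17 lower, Y537S against WT gave 68 higher and 96 lower with E2 and 99 higher and 98 lower without E2, and K303R against WT gave 50 higher and 55 lower with E2. Centred on windows, K303R against WT gave 40 higher and 56 lower with E2 and 25 higher and 53 lower without E2. Shares over all regions under background scaling are given above. They were not computed for the centred settings.

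At a minimum mean of 20 fragments (1605 regions), E2 in K303R gave 85 higher and 14 lower, the Y537S median with E2 over without E2 was 0.02, and K303R against WT gave 175 higher with E2 (median 0.23) and 129 without E2 (0.21). With no minimum (1762 regions) the counts were 95 higher and 12 lower for E2 in K303R, 271 higher for Y537S against WT without E2, and 197 and 150 higher for K303R against WT with and without E2. At a minimum of 100 (608 regions) they were 26 higher for E2 in K303R (median 0.01), 19 higher and 4 lower for E2 in WT, 1 lower for E2 in Y537S, 44 higher and 32 lower for Y537S against WT with E2, 70 higher and 25 lower without E2, and 37 and 25 higher for K303R against WT with and without E2 (0.11 and 0.10). Over all regions the share called higher with E2 in K303R was 1.72% at a minimum of 20, 1.75% with none and 1.49% at 100. On chromosome 22 it was 5.3%, 5.39% and 4.28%. In WT at 100 it was 0.994% over all regions and 3.12% on chromosome 22. Shares over all regions were not computed for the other calls at these minimums.

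At a fold of 2, E2 in K303R gave 28 higher and 1 lower, E2 in WT 23 higher and 3 lower, E2 in Y537S 0 lower, Y537S against WT 48 higher and 31 lower with E2 and 70 higher and 29 lower without E2, and K303R against WT 29 higher and 11 lower with E2 and 19 higher and 15 lower without E2. At this fold 2.6% of chromosome 22 regions were called higher with E2 in K303R, against 1.15% of all regions. In WT the shares were 2.14% and 0.598%. Shares over all regions were not computed for the other calls in this paragraph. Under median of ratios E2 in WT gave 5 lower, and the medians against WT were 0.06 and 0.12 for Y537S and 0.15 and 0.13 for K303R, with and without E2. Within 5 kb of a gene end lay 26.2% of regions. Of the 3581 regions 2505 entered no ratio, and 111 of these had a mean of 50 or more fragments but were in 1 to 5 lists.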

Other observations

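Other motifs were searched on both strands in the same promoters. The AP-1 motif TGANTCA was in 15.2% of the 33 chromosome 22 promoters with a summit in all 6 lists, against 6.29% of the 493 with no summit and 7.71% of all promoters. The forkhead motif TGTTTAC was in 3.03%, against 2.84% and 3.42%, and the GATA motif AGATAA in 9.09%, against 8.92% and 10.3%. A match describes letters and not a bound site.

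Genes of neuronal, liver and immune cells were near a strong region for 13 of 16 and in all 6 libraries for 6, against 312 and 221 of the 451 protein-coding genes of the chromosome.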
